A study of Mus musculus with 5 samples.

Results

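The genes described here are 10 killer lectin-like receptor genes, Klrg1, Klrd1, Klrc1, Klrc2, Klrk1, Klre1, Klrb1c, Klrb1b, Klrb1f and Klra6, out of 31053 genes in the count matrices. They were taken by gene symbol, and their transcripts were followed in T cells from the injured mouse kidney. Single-cell 3′ RNA libraries were made from CD4 T cells sorted by flow cytometry out of digested kidneys after unilateral ischemia-reperfusion injury, in which the blood supply of a kidney is stopped and restored. The study was set up to examine Treg cells (regulatory T cells) that carry ST2, the interleukin-33 receptor encoded by Il1rl1. All mice were 10 weeks old, all were injured and all carried Il1rl1fl/fl, a floxed Il1rl1 gene. The 2 control libraries came from Il1rl1fl/fl mice without Cre. The 3 knockout libraries had the genotype Il1rl1fl/fl Foxp3YFP-Cre, with Cre made from the Foxp3 gene of Treg cells. Because only the knockout mice carried Foxp3YFP-Cre, the loss of Il1rl1 and the presence of that allele cannot be told apart. Neither an uninjured group nor the time after injury was given in the sources used here, and the labels do not say whether the libraries came from separate animals, so p-values measure the spread between these libraries, which may be technical.

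These receptors are C-type lectin-like proteins of the cell surface, best known from natural killer (NK) cells and also found on subsets of T cells. Some carry inhibitory motifs that recruit the phosphatases encoded by Ptpn6, Ptpn11 and Inpp5d, while others signal through the adaptors Tyrobp (DAP12), Hcst (DAP10) or Fcer1g. Klrg1 binds cadherins and is inhibitory; on Treg cells of tissues it is used as a marker of the effector state. Klrd1 (CD94) pairs with Klrc1 (NKG2A, inhibitory) or Klrc2 (NKG2C, activating) to bind Qa-1, the product of H2-T23. Klrk1 (NKG2D) is an activating receptor for stress-induced ligands, and the Klrb1 genes encode NKR-P1 receptors, some of which bind Clec2 proteins. Klre1 pairs with Klri1 or Klri2, and Klra6 belongs to the Ly49 receptors for classical MHC class I.

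All 10 are protein-coding genes on mouse chromosome 6 (mm10, GENCODE annotation). Klrg1 lies at chr6:122270596-122282882. The other 9 lie together between 128778485 and 130026954, a span of 1.25 Mb that starts 6.50 Mb beyond Klrg1. RefSeq promoter windows (GRCm38.p6), each the 250 bases before a transcription start, were at hand for 8 of the 10 genes. Klrg1 and Klrd1 had none. Because the clustered genes were high in the same cells (below), the windows were searched for 2 motifs of lymphocyte factors: the RUNX core TGTGGT, which reads ACCACA on the other strand, and the T-box core GGTGTG, which reads CACACC there. These 8 genes have 11 windows, of which 6, from 5 genes, held the RUNX core, against 14.0% of 32851 promoter windows of the same length. The T-box core was in 3 of the 11, from Klrb1f and Klrb1b, against 16.3%. Windows of the same gene overlap, so neither count is of separate sequences. None of these windows held both motifs. A match is a run of letters, not a measured binding site. The 5 windows with the RUNX core are shown with it in capitals, each on the gene's strand: Klrb1c at chr6:128788642-128788891 (minus strand), Klre1 at chr6:129577963-129578212 (plus strand), Klrk1 at chr6:129623865-129624114 (minus strand), Klrc2 at chr6:129660597-129660846 (minus strand) and Klrc1 at chr6:129678974-129679223 (minus strand).
Klrb1c: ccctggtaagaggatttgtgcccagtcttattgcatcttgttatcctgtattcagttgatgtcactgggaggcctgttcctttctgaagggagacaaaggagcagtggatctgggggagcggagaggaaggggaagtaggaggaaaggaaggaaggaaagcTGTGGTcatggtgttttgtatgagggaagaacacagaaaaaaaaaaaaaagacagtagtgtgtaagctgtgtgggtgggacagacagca
Klre1: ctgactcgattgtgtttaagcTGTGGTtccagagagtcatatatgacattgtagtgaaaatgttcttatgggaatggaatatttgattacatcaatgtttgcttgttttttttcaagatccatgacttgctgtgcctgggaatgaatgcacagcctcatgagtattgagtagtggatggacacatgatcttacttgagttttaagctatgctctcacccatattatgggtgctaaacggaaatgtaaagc
Klrk1: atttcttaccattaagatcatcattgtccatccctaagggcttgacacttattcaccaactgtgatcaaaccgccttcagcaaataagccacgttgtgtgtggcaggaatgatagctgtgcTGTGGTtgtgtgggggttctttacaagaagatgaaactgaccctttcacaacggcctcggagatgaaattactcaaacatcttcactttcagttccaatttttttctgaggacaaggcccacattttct
Klrc2: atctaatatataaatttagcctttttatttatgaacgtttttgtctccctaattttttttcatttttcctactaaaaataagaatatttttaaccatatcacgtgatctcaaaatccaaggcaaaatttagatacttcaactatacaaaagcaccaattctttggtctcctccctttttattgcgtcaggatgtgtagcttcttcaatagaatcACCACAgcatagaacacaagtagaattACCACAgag
Klrc1: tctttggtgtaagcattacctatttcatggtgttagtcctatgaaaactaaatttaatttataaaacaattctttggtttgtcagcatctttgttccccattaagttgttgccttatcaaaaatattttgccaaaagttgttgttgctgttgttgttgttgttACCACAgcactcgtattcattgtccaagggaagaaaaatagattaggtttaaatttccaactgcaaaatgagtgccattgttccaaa
The core begins 89 bases before the start in Klrb1c, 229 in Klre1, 129 in Klrk1 and 87 in Klrc1, and Klrc2 has it at 36 and at 9 bases before the start. A further start of Klre1 has no core in its window, and a further start of Klrc2 has both.

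The 5 libraries held 40778 barcodes, of which 38417 cells had at least 500 detected genes and under 10% mitochondrial UMIs (unique molecular identifiers, the counted molecules). Between 4241 and 10320 cells were kept per library, and the median depth ran from 3786 to 13534 UMIs per cell, with control replicate 1 the deepest. Library pairs shared 2 to 39 barcodes. Cells were gated by transcripts: at least 1 Foxp3 UMI (Foxp3 gate, 315 to 863 cells per library), no Foxp3 with at least 1 Cd4 UMI (conventional CD4 gate, 3142 to 7417), Il23r (97 to 609), Cd8a with Cd8b1 (Cd8 gate, 63 to 329), and Ncr1, the NK receptor NKp46 (12 to 80). Apart from the Foxp3 and conventional CD4 gates, the gates share cells. The reference CD4 cells are the conventional CD4 gate without cells of any other gate. Levels are in CPM, a gene's share of the gate's UMIs scaled to a total of 1000000. Summed CPM of 6 Treg markers was 2097 to 2993 in the Foxp3 gate and 322 to 440 in the reference cells, and that of Cd8a and Cd8b1 was 653 to 953 in the Cd8 gate and 4.71 to 7.86 in the reference. Foxp3 is among the Treg markers and is absent from the reference by definition, and Cd8a and Cd8b1 define the Cd8 gate. The Cd8 difference is thus set by the gating, and the Treg difference in part. In the Ncr1 gate, 6 NK markers, 2 of them the gating gene and Klrb1c, summed to 2438 to 3394, against 159 to 249. Cd3e, which NK cells lack at the surface, was still detected in 52.0% to 82.4% of Ncr1-gate cells, and the sort used TCRβ and CD4, so the gate is named by its gene only. Il1rl1 itself did not separate the groups in the Foxp3 gate, at 74.2 and 54.8 CPM in controls and 128, 53.9 and 51.6 in knockouts, while in the conventional CD4 gate it was at 8.87 and 9.04 against 57.6, 35.3 and 24.1. The floxed part of Il1rl1 is not given in the sources used here, and a 3′ read outside it checks nothing about the deletion.

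The data divided the 10 receptors by where they were highest. Klrg1 had its highest level in the Foxp3 gate in 4 of 5 libraries, whereas each of the other 9 genes was highest in the Ncr1 gate in 5 of 5. The plot of levels by gate shows this for every library. In summed data, fewer cells of a type and less RNA per cell cannot be told apart.

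**Figure D1:**
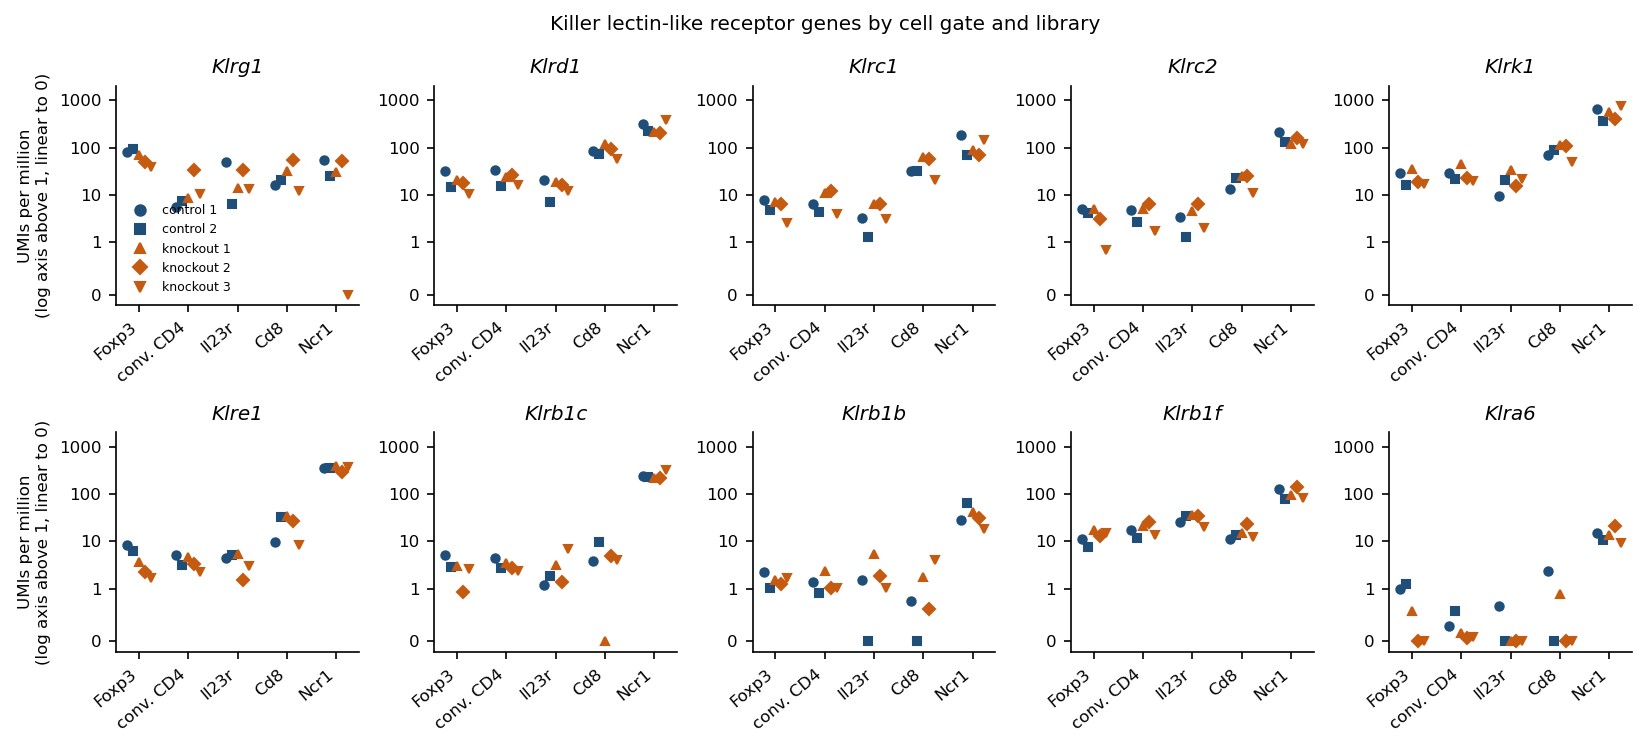
Level in CPM (y axis, logarithmic above 1 and linear down to 0) of the 10 receptor genes in 5 cell gates (x axis); each point is a library, blue for controls and orange for knockouts. Klrg1 is highest in the Foxp3 gate in 4 of 5 libraries, and the other 9 genes in the Ncr1 gate in 5 of 5.

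Klrg1 in the Foxp3 gate stood at 80.9 and 93.9 CPM in controls and 70.3, 48.6 and 39.3 in knockouts. In the reference CD4 cells it was at 5.01 and 7.53 in controls and 8.50, 32.5 and 10.9 in knockouts. The Foxp3 gate was above the reference in each library, and knockout replicate 2 had the smallest distance between them. Over the 5 libraries the Foxp3-gate mean was 66.6 ± 22.6 CPM (SD, n = 5), followed by the Ncr1 gate at 32.8 ± 22.7, the Cd8 gate at 27.0 ± 16.6, the Il23r gate at 23.2 ± 17.6 and the conventional CD4 gate at 13.0 ± 11.4. The SDs of the last 4 gates overlap, so these means do not order them, while tests within libraries (below) set the Cd8 and Ncr1 gates above the reference. Against the reference, Klrg1 was 2.61 log2 units higher in the Foxp3 gate (SE 0.45, adjusted p = 0.00255, edgeR quasi-likelihood test with library as a term, Benjamini-Hochberg over all genes), higher in 5 of 5 libraries and called in each of 12 alternatives, at 2.14 to 3.26. In this comparison 2795 of 12945 genes were called (21.6%), 12.6% of all as higher and 9.03% as lower, and 3 of the 9 receptor genes that passed the filter were called.

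The share of Klrg1 UMIs that came from Foxp3-gate cells was 66.2% and 60.7% in controls and 53.4%, 20.3% and 31.9% in knockouts. Shares of cells were compared at equal depth, with every cell thinned to 2000 UMIs and the gates drawn again on the thinned counts, which leaves 142 to 380 Foxp3-gate cells per library. There 12.9% and 14.2% of control Foxp3-gate cells and 11.3%, 6.38% and 10.2% of knockout ones held a Klrg1 UMI. With the gate drawn before thinning (301 to 800 cells) the shares were 10.6% and 13.4% against 9.97%, 7.88% and 7.83%. Without thinning they were 29.9% and 23.4% against 28.9%, 18.3% and 16.4%. Thinned macrophage-marked cells, which should lack Klrg1, gave 3.92% and 0% in controls and 2.78%, 4.00% and 3.12% in knockouts, from 36 to 99 cells. The Foxp3 gate was above that background in each library. In the conventional CD4 gate 1.11%, 1.55%, 1.90%, 5.45% and 1.54% of cells held a Klrg1 UMI. This was at or below the macrophage share in 3 of the 5 libraries, where it could not be told apart from background. The macrophage-marked cells are an imperfect blank, since without thinning Cd4 was detected in 28.6% to 57.8% of them. Also without thinning, 101 B cells (Cd79a and Ms4a1 without Cd3e) held 0 Klrg1 UMIs. With gates drawn before thinning, control replicate 1 and knockout replicate 3 stayed below the macrophage share, at 0.966% against 2.63% and 1.49% against 5.41%. Knockout replicate 1 had 1.40% against 0 of 23 macrophage-marked cells.

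Klre1 and Klrb1f were the other receptor genes called in the Foxp3 gate. Klre1 was higher by 1.23 (SE 0.31, adjusted p = 0.0174), a call lost in 5 of 11 alternatives. Its UMIs were concentrated: the top 1% of Foxp3-gate cells held 85.2% to 100% of them. Cells that also carried Ncr1 numbered 12 and 5 in controls and 3, 0 and 1 in knockouts. The Foxp3-gate level of Klre1 was 8.23 and 6.14 CPM in controls and 3.65, 2.21 and 1.72 in knockouts. Without cells of other gates it was 3.19 and 0 in controls and 0.259, 2.37 and 0.656 in knockouts, lower than with them in 4 of 5 libraries. The reference, which leaves out the same cells, stood at 2.05 and 1.42 in controls and 2.49, 1.96 and 0.933 in knockouts, and the ranges overlapped. Klrb1f was lower than in the reference by 0.46 (SE 0.14, adjusted p = 0.0460), lost in 4 of 12 alternatives. Markers of T cells and of other cells differed in the Foxp3 gate too. T cell markers were lower for 5 of 7 tested (Cd247, Lck, Lat, Cd3g and Cd3e), as were Cd40lg and Cd4, by which the reference was gated. Of 9 macrophage and monocyte markers 7 were higher and Ly6c2 was lower (941 to 1840 CPM summed, against 712 to 1230). Cd8a and Cd8b1 were both higher, and 6 NK markers summed to 261 to 342 CPM against 159 to 249 in the reference, which leaves out Ncr1 and Cd8 cells, and 180 to 260 in the whole conventional CD4 gate. Their part in these calls, that of Klre1 included, was not tested beyond the values without cells of other gates.

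**Figure D2:**
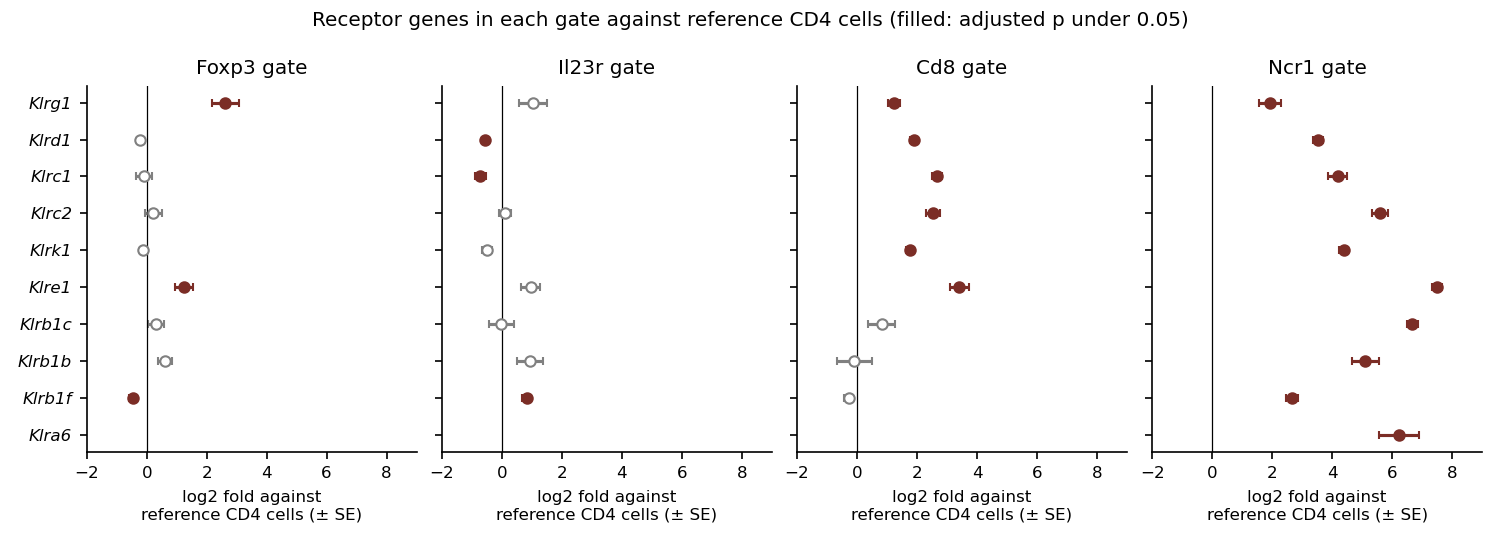
Log2 fold of each receptor gene in 4 gates against reference CD4 cells (x axis, points with SE bars; filled points passed an adjusted p of 0.05, genes without a point did not pass the count filter). All 10 genes are filled and to the right in the Ncr1 gate, and 6 are in the Cd8 gate, while Klrg1 leads in the Foxp3 gate.

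In the Ncr1 gate all 10 receptor genes passed the filter and were higher than in the reference CD4 cells, where 719 of 11867 genes were called (6.06%) and 3.43% were higher. The median fold was 4.75 log2 units, against -0.04 over all genes tested. Klra6 passed the filter in this gate and in none of the other 3. It was thus tested against the reference only where it was high, and its place in these counts is a description. The gate holds few cells, and with the 3 libraries that have at least 20 of them, an alternative chosen after seeing the data, all 10 were still called, at 2.21 (Klrg1) to 7.42 (Klre1). Klre1 rose most, from 2.05, 1.42, 2.49, 1.96 and 0.933 CPM in the reference to 356, 350, 385, 286 and 367 in the gate (log2 fold 7.51, SE 0.17, adjusted p = 1.5e-29), in the order control 1 and 2, then knockout 1 to 3. Klrb1c, which encodes the NK1.1 antigen of NK cells, was at 244, 230, 223, 217 and 321 CPM in the gate and at 1.59 to 2.87 in the reference (6.68, SE 0.19). Klrk1 stood at 643, 367, 578, 397 and 770 CPM against 18.1 to 44.1 (4.39, SE 0.15). For both genes the lowest gate value was above the highest reference value.

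The CD94 and NKG2 genes were higher in the Ncr1 gate too. Klrd1 was at 320, 219, 217, 207 and 385 CPM, with the reference at 14.0 to 29.2 (3.54, SE 0.16). Klrc2 was at 213, 134, 117, 159 and 119 CPM (5.59, SE 0.26) and Klrc1 at 181, 70.7, 89.4, 68.8 and 147 (4.18, SE 0.33). Klrc1 and Klrc2 are closely related, and 37.5% and 13.0% of the 60-base words in their last 500 transcript bases occur in another gene, so the split of reads between them is uncertain. Klrb1b (20.4% shared words) was at 18.3 to 63.6 CPM (5.11, SE 0.45), and Klrb1c shares 16.2%. Klra6 was the scarcest in UMIs, with 9.17 to 21.2 CPM in the gate and 0 to 0.570 in the reference (6.24, SE 0.67). Klrb1f, at 77.7 to 138 CPM against 10.7 to 24.9, rose by 2.67 (SE 0.19). Klrg1 showed the smallest fold of the 10, at 1.93 (SE 0.37, adjusted p = 3.8e-04), and lost the call in 3 of 12 alternatives, among them leaving out control replicate 1 (1.03, adjusted p = 0.160); knockout replicate 3 had 0 Klrg1 UMIs from 12 cells, which allows up to 27.5 CPM.

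Other genes of the pathway were also higher in the Ncr1 gate. Among 19 further killer lectin-like receptor genes, 16 were in the matrices, 11 passed the filter and 10 were higher: Klrb1a, Klri1, Klri2 and 7 Ly49 genes, but such genes passed the filter largely through this gate (5 to 8 of the list passed in the other gates), so the count is a description. Klri2, the Klre1 partner, was higher by 7.34 and Klri1 by 3.76. Of 16 adaptors and signalling genes, 5 were higher, namely Tyrobp by 2.51, Fcer1g by 2.38, Sh2d1b1 by 2.20, Syk by 1.86 and Pik3r1 by 0.76, and Lat, the T cell receptor scaffold, was lower at -0.55. Hcst, the adaptor of Klrk1, was not called (-0.28). Of 21 tested genes that accompany NK function, not counting the gating gene Ncr1, 17 were higher, including Gzma (7.00), Prf1 (4.83) and the transcription factor Eomes (4.69). Of 8 receptor ligands tested, 0 were called (list median -0.05; the gate as a whole had 6.06% called). T cell markers were lower for 7 of 7 tested, and 5 of 9 macrophage markers were higher and Lyz2 lower, whose part was not tested.

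The Cd8 gate had 6 of 9 tested receptor genes higher, with 604 of 12396 genes called (4.87%) and 2.48% higher. Klre1 was at 9.83, 32.1, 34.3, 26.5 and 8.19 CPM in the gate, in the same library order (3.41, SE 0.31). Klrc1 stood at 32.2, 32.1, 62.3, 57.4 and 20.5 CPM against 3.45 to 12.2 in the reference (2.67, SE 0.16), and Klrc2 at 10.9 to 25.3 (2.54, SE 0.24). Klrd1 was at 84.6, 74.0, 116, 93.2 and 56.0 CPM (1.90, SE 0.12) and Klrk1 at 69.7, 90.1, 113, 109 and 49.2 (1.76, SE 0.13). The gate and the reference did not overlap for Klre1, Klrc1, Klrc2, Klrd1 or Klrk1. Klrg1 was higher by 1.24 (SE 0.19, adjusted p = 6.72e-04), yet only by 0.21 after thinning to 2000 UMIs (adjusted p = 0.974), and the call was lost without a library term as well. Klrb1c, Klrb1b and Klrb1f, the NKR-P1 genes, were not called. Of 8 other receptor genes tested, Klrc3, Klra9, Klra7 and Klra3 were higher, as were 11 of 21 cytotoxic companions, among them Eomes (3.57), Cd160 (3.12) and Prf1 (2.75). No adaptor was higher, and Ptpn11 was lower at -0.33. Cd4 was detected in 54.4% to 74.6% of Cd8-gate cells, and 5 of 9 macrophage markers were higher, whose part was not tested.

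In the Il23r gate, 1299 of 12363 genes were called (10.5%), 6.33% higher and 4.17% lower. Klrb1f was the receptor gene that was higher there, at 25.9, 34.1, 35.8, 34.2 and 20.2 CPM against 16.0, 10.7, 17.7, 24.9 and 13.2 in the reference (0.84, SE 0.15, adjusted p = 0.00639), above it in 5 of 5 libraries and called in each of 11 alternatives. Klrd1 was lower at -0.55 (SE 0.11, adjusted p = 0.0101) and Klrc1 at -0.72 (SE 0.19, adjusted p = 0.0361), the latter called in 4 of 10 alternatives. Among the cytotoxic companions, not counting Ncr1, whose cells the reference lacks by definition, 10 of 21 were lower, including Ccl5, Gzma and Nkg7, and 2, Fcgr3 and Prdm1, were higher. Markers of other cells moved too: 5 of 9 macrophage markers were higher and Ly6c2 lower (1007 to 1579 CPM summed, against 712 to 1230 in the reference), 5 of 6 Treg markers were higher (583 to 1372 against 322 to 440), and Cd3e, Cd4 and Cd40lg were lower. Foxp3 was among the higher Treg markers and is absent from the reference by definition. Cd8a and Cd8b1 were higher as well, in a comparison whose reference leaves out cells with both. The part of such cells in the Klrb1f, Klrd1 and Klrc1 calls was not tested.

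No receptor gene was called between knockout and control libraries in any gate that could be tested. The Foxp3 gate gave 0 of 11519 genes called by edgeR (0%), 752 with an unadjusted p under 0.05, and 51 by DESeq2. In the conventional CD4 gate the values were 0 of 13959 (0%), 685 and 58. The Il23r gate gave 5 of 11652 (0.0429%) and the Cd8 gate 0 of 9024 (0%), with 330 at an unadjusted p under 0.05 and 3 by DESeq2. The Ncr1 gate of the knockouts held 17, 23 and 12 cells, and because 2 of the 3 libraries were under the minimum of 20 cells set for a comparison of genotypes, none was run there.

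Klrg1 in the Foxp3 gate did not overlap between the groups, since its lowest control, 80.9 CPM, was above its highest knockout, 70.3, but the difference was not called. The log2 difference was -0.75 (SE 0.21, adjusted p = 0.530 by edgeR and 0.143 by DESeq2) and stayed negative and not called on leaving out each library in turn. Without a filter on low counts it was called (adjusted p = 1.9e-07). Without cells of other gates the groups overlapped, with 76.4 and 99.7 CPM in controls and 79.7, 51.0 and 42.0 in knockouts (-0.64). The thinned share of cells with a Klrg1 UMI was lower by 4.29 percentage points in the knockouts, again without overlap (exact two-sided permutation p = 0.2, the smallest that 2 against 3 libraries allow; adjusted p = 1 over 50 tests of shares). With the gate drawn before thinning it was lower by 3.44 points, with the same p of 0.2 by the exact permutation test and no overlap. Macrophage and monocyte markers summed to 941 and 1157 CPM in the control Foxp3 gates and to 1485 to 1840 in the knockout ones, and their part in the difference was not tested; after removal of cells with markers of other types the Klrg1 difference was -0.57.

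Among conventional CD4 cells Klrg1 had its higher values in the knockouts, at 5.50 and 7.33 CPM in controls and 8.63, 33.1 and 10.7 in knockouts. Knockout replicate 2 stood apart, and the difference of 1.42 (SE 0.60, adjusted p = 0.995) was 0.56 without it; with no filter on low counts it was called (adjusted p = 0.0304). The knockout effect on Klrg1 differed between the Foxp3 and conventional CD4 gates by -2.11 log2 units (SE 0.51, adjusted p = 0.286), in a test that called 7 of 13949 genes (0.0502%). That value depended on single libraries: it was -2.79 without knockout replicate 1 (adjusted p = 0.00744, called) and -1.26 without knockout replicate 2 (adjusted p = 0.488), and it was called without a filter on low counts. Il1rl1 was among the called genes of that test, at -1.96 (SE 0.18, adjusted p = 0.00273). The conventional CD4 gate keeps any Treg cells in which Foxp3 was not detected. Its summed Treg markers, with Foxp3 absent by definition, were at 325 to 334 CPM in controls and 424 to 440 in knockouts. The part of such cells in the Klrg1 values of this gate and in the difference between gates was not tested.

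**Figure D3:**
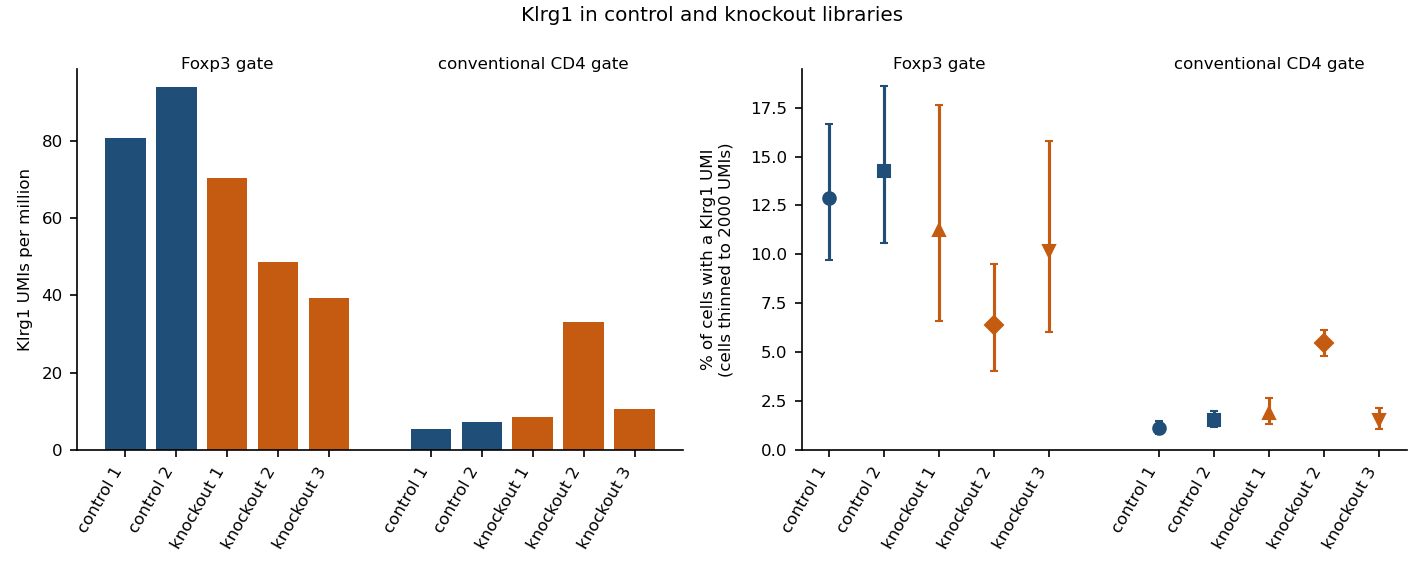
Klrg1 in each library in the Foxp3 and conventional CD4 gates: left, CPM; right, percent of cells with a Klrg1 UMI after thinning to 2000 UMIs and drawing the gates again, with exact 95% binomial intervals (counting error only). Blue controls lie above orange knockouts in the Foxp3 gate, and knockout 2 is the highest in the conventional CD4 gate.

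Klre1 and Klrb1f were the other receptor genes whose control and knockout libraries did not overlap in the Foxp3 gate. Klre1 was at 8.23 and 6.14 CPM in controls and 3.65, 2.21 and 1.72 in knockouts (-1.55, SE 0.35, adjusted p = 0.417; called at 0.00114 without a filter). Without cells of other gates this was -0.65, with the groups overlapping. Klrb1f was at 11.1 and 7.78 CPM in controls and 17.5, 12.9 and 14.9 in knockouts (0.59, SE 0.23, adjusted p = 0.712). So 3 of the 8 receptor genes that passed the filter did not overlap, against 22.2% of all genes tested; 1 was higher in the knockouts (14.9% of all genes) and 2 were lower (7.27%). The conventional CD4 gate had 1 of 9, Klrg1, higher, against 18.8%, 12.4% of all genes being higher; the Il23r gate had 0 of 9 against 21.6% and the Cd8 gate 0 of 7 against 15.6%. The remaining genes overlapped between groups in each of these gates; Klrk1, for instance, stood at 28.3 and 16.6 CPM in the control and 35.4, 18.8 and 16.6 in the knockout Foxp3 gates. Receptor ligands, adaptors, cytotoxic companions and the 2 Treg lists had 0 members called in any of the 4 gates.

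Because Klrg1 was the receptor of the Foxp3 gate, the cells of that gate, drawn before thinning, were split by a Klrg1 UMI after thinning to 2000 UMIs: 85 and 73 control cells and 30, 63 and 27 knockout cells had one. Between cells with and without Klrg1, 191 of 10243 genes were called (1.86%), 0.927% higher and 0.937% lower. Il1rl1, the ST2 gene, was at 218 and 156 CPM in Klrg1 cells of the controls and 331, 155 and 136 in those of the knockouts, against 57.7, 39.1, 111, 44.5 and 42.8 in the cells without (1.81, SE 0.10, adjusted p = 6.94e-07). It was higher in 5 of 5 libraries of both genotypes and called in each of 11 alternatives. Frmd5 had the largest fold among the named genes, at 279 ± 197 against 67.7 ± 35.0 CPM (2.00, SE 0.16, n = 5). Ccr3 (1.62) and Ltb4r1 (1.30), receptors for chemokines and leukotriene B4, Nav2 (1.43), Slc24a3 (1.23), Tox2 (1.23), Neb (1.22), the checkpoint receptor Tigit (1.16) and Bicd1 (1.15) were higher as well.

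Genes of the effector Treg list followed, with 9 of 14 tested higher and 0 lower (list median 0.69, against -0.01 over all genes). They were Il1rl1, Pparg (1.24), Tigit, the costimulatory receptor Tnfrsf9 (0.96), the integrin gene Itgae (0.89), the type 2 factor Gata3 (0.73), Ctla4 (0.66), Rora (0.58) and Icos (0.57). Areg, the repair factor amphiregulin, was at 27.9 ± 32.9 CPM against 20.7 ± 15.8 and was not called. Of 8 resting Treg genes 4 were lower: Ccr7 (-1.27), Satb1 (-0.92), Bcl2 (-0.81) and Lef1 (-0.48). Among the companions of cytotoxicity Gzmb was higher by 1.29 and Prdm1, which encodes the transcription factor Blimp-1, by 0.80. All 6 Treg markers, Foxp3 among them, were higher in the Klrg1 cells. These lists were drawn up with earlier results of these libraries known, so their direction is not independent evidence, and leaving out control replicate 1 reduced the genes called from 191 to 20.

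No other receptor gene was called in the Klrg1 split. Klrd1 was at 9.46 ± 11.2 CPM with Klrg1 and 20.3 ± 9.16 without (-1.07, SE 0.48, adjusted p = 0.363), and Klrk1 at 10.0 ± 12.6 against 24.7 ± 9.09 (-1.13, SE 0.43, adjusted p = 0.266). Each was called as lower in 2 of 9 alternatives. By the naming rule the largest decreases in Klrg1 cells were Lyz2, which encodes lysozyme (-2.23), F13a1 (-2.06), Mgl2 (-2.04), Napsa (-2.03), Cxcl10 (-1.91), Eps8 (-1.87), H2-Eb1 (-1.82), Cfp (-1.81), H2-DMb1 (-1.74) and Tbxas1 (-1.72), and the adaptors Fcer1g and Tyrobp were lower too. The summed macrophage and monocyte markers stood at 538 to 1395 CPM in Klrg1 cells and 978 to 1935 in the others, with 1 of the 9, Lyz2, called, and 0 of 2 dendritic cell markers tested; the part of such cells in the split was not tested. With cells carrying markers of other types removed, the Il1rl1 difference was 1.69.

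**Figure D4:**
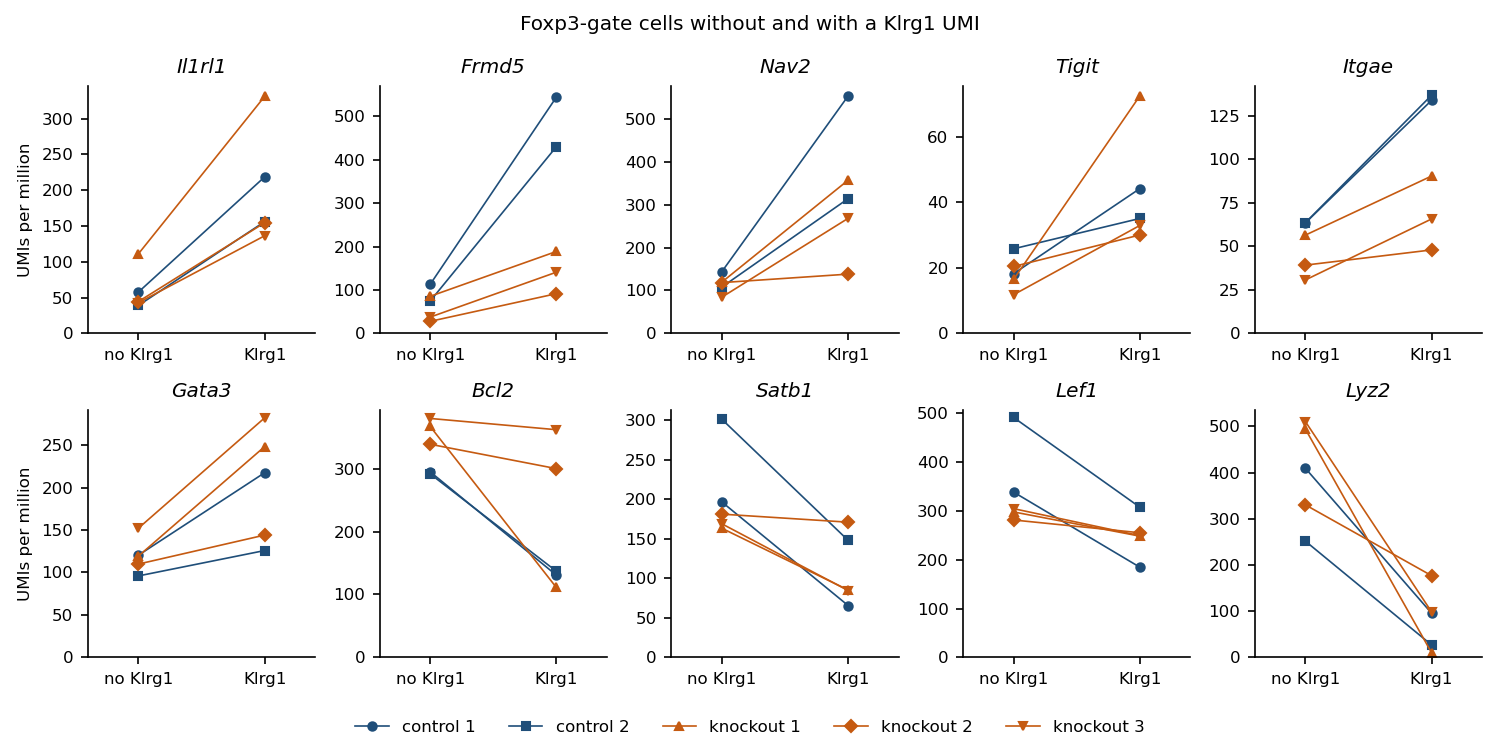
Level in CPM (y axis, from 0) of 10 called genes in Foxp3-gate cells without and with a Klrg1 UMI; each line joins the 2 sums of a library, blue for controls and orange for knockouts. Il1rl1 rises and Lyz2 falls in 5 of 5 libraries.

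The other receptors were examined through Klrd1, the partner of Klrc1 and Klrc2, in the conventional CD4 gate. After thinning, with the gate drawn before it, 227 and 118 control cells and 106, 276 and 84 knockout cells had a Klrd1 UMI, or 3.09%, 2.29%, 3.46%, 4.17% and 2.56%. Macrophage-marked cells drawn in the same way had 1 such cell, in knockout replicate 2 (3.33%), and 0 in the other libraries, from 23 to 81 cells each, so background is only loosely bounded. Without thinning, the Klrd1 level was 17.1 ± 14.4 CPM in those cells, from 20 UMIs, and 23.2 ± 7.62 in the conventional CD4 gate (SD, n = 5), a difference within the spread. How many of the split's Klrd1 UMIs are background was not tested. Between these and the cells without, 719 of 12272 genes were called (5.86%), 3.39% higher and 2.47% lower, and all 8 receptor genes that passed the filter were higher (median 3.01, against -0.00 over all genes). Klrk1 was at 197, 204, 232, 120 and 219 CPM against 22.2, 16.5, 36.8, 19.3 and 15.7, in the order control 1 and 2, knockout 1 to 3 (3.12, SE 0.14, adjusted p = 1.14e-08). Klre1 was at 30.8 to 54.8 CPM against 1.24 to 3.34 (4.12, SE 0.23), Klrb1c at 16.0 to 43.8 against 1.51 to 3.01 (3.92, SE 0.27) and Klrc2 at 28.5 to 39.6 against 1.19 to 5.20 (3.47, SE 0.29). Klrc1 (2.89, SE 0.19), Klrb1b (2.61, SE 0.37) and Klrg1 (1.74, SE 0.19) also rose. Klrb1f had the smallest difference (0.59, SE 0.16, adjusted p = 0.0428), a call lost in 8 of 12 alternatives. Knockout replicate 2 was the lowest in the Klrd1 cells for Klrk1, Klre1 and Klrb1c and the highest for Klrg1 and Klrc1.

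**Figure D5:**
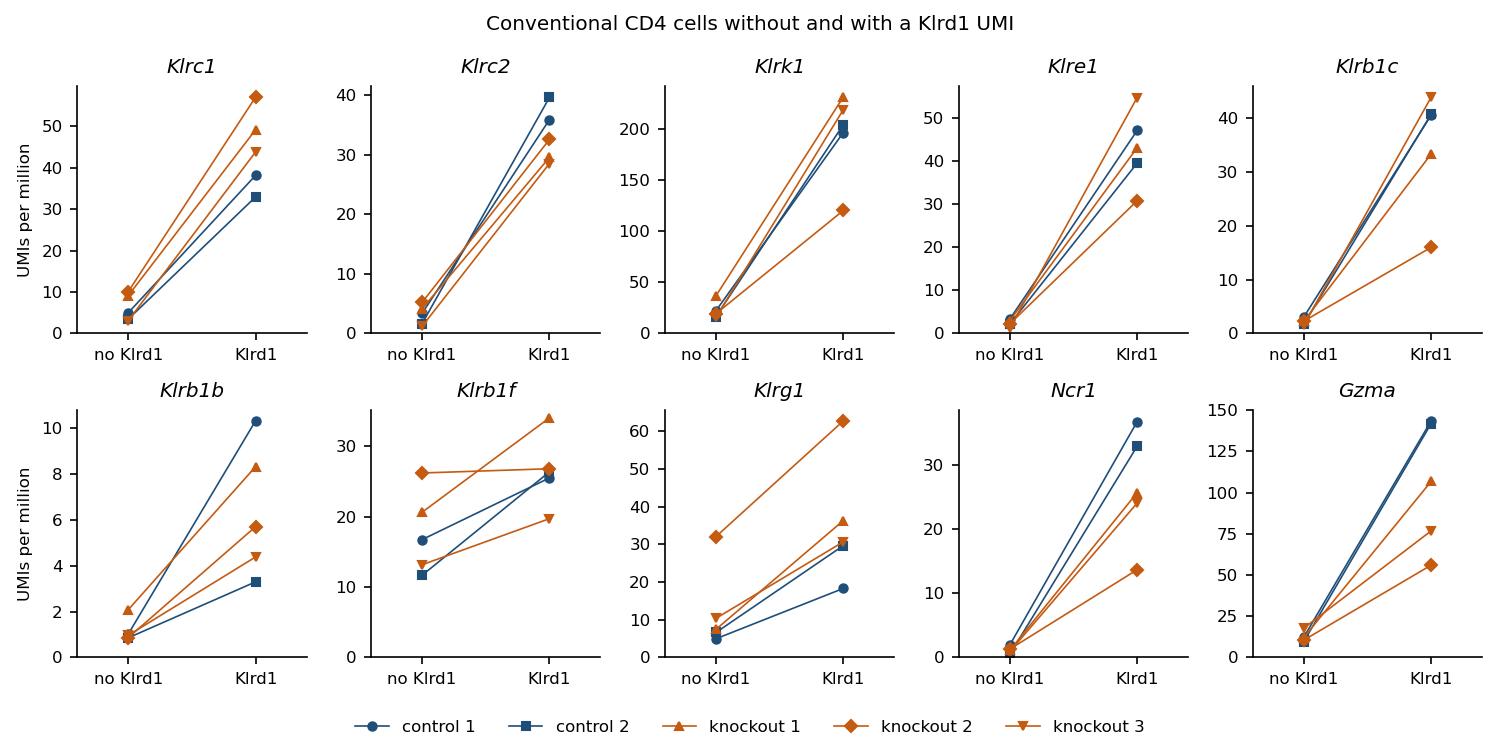
Level in CPM (y axis, from 0) of 8 receptor genes, Ncr1 and Gzma in conventional CD4 cells without and with a Klrd1 UMI; each line joins the 2 sums of a library, blue for controls and orange for knockouts. All 10 genes are higher with Klrd1 in 5 of 5 libraries, Klrb1f by the least.

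The split held when cells of other gates were left out, for 7 of the 8 genes: Klrk1 was then higher by 3.16, Klre1 by 4.17, Klrb1c by 3.38, Klrc2 by 3.36, Klrc1 by 2.94, Klrb1b by 2.61 and Klrg1 by 1.68, while Klrb1f stood at 0.20 (adjusted p = 0.709). All further values of this paragraph come from the split with those cells kept. Of 12 further receptor genes tested, 11 were higher in the Klrd1 cells, with Klri2 at 4.49 and Klri1 at 3.63. Such genes can be scarce in cells without Klrd1, as Klri2 was at 0.0317 to 1.76 CPM. They may have passed the filter through the Klrd1 cells, so the count is a description. Cytotoxic companions were higher for 14 of 22, from Ncr1 (4.50), Gzma (3.12) and Prf1 (2.15) to the chemokine gene Ccl5, at 1648 ± 176 against 627 ± 75.8 CPM (1.39, SE 0.06). Without cells of other gates Ncr1 is absent by definition, and Eomes, among the 14, changed sign (below). Adaptor genes gave 5 of 16 higher, Fcer1g (1.01), Tyrobp (1.04), Syk (0.86), Ptpn6 (0.42) and Pik3r1 (0.26). Cdh1, which encodes E-cadherin, the ligand of Klrg1, was the only ligand called, at 1.84. By the naming rule Kcnj8 (3.67), Clnk (3.27) and Cd209a (3.05) were among the largest increases. The largest decreases were Jchain (-7.52, with an SD above its mean in the cells without Klrd1) and the proliferation and histone genes Hist1h2ak, Cenpf, Ube2c, Hist1h2ap, Ckap2l, Ccna2, Hist1h2ab and Aspm, at -1.62 to -1.34, with the chemokine gene Ccl1 at -1.61. Of 9 macrophage markers, Ccr2 and Ly6c2 were higher and 3 were lower. Dendritic cell markers were higher too (4 of 5 tested, summed at 24.1 to 325 CPM against 10.7 to 32.9), as were Cd8a and Cd8b1 (37.3 to 100 CPM against 13.0 to 45.6), and their part in the split was not tested. Of 7 T cell markers tested, Trac was lower, with the list summed at 2970 to 3785 CPM against 3652 to 3835.

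Within thinned conventional CD4 cells, a Klrd1 UMI was found in 16.9%, 13.6%, 16.3%, 8.99% and 8.16% of cells with a Klrg1 UMI and in 2.95%, 2.16%, 3.28%, 3.90% and 2.48% of those without, as a description of cells that share libraries. Across the 25 sums of 5 gates and 5 libraries, the genes most like Klrd1 in log2 CPM were Klrc1 (Pearson r 0.98), Klrc2 (0.97), Samd3 (0.96), Klrk1 (0.95) and Gem (0.95). For Klrk1 they were Klre1 (0.97), Klrc2 (0.96), Prf1 (0.96), Klrd1 (0.95) and Gzma (0.95). For Klrb1c the first was Ncr1 (0.97), which itself defines a gate whose sums are among the 25. Klrg1 followed other genes: Pear1 (0.84), Arel1 (0.80), Skil (0.78), Prdm1 (0.78) and Tox (0.78), with r from -0.15 to 0.01 against the other receptor genes compared. These sums share libraries, depth and cells, 7387 genes were compared, and the values describe likeness only.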

How the data were processed

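Raw, unnormalized UMI counts were analysed as deposited. The file headers give Cell Ranger 8.0.0 as their source, and mm10 and Seurat 5.1.0 are named by the submitters' processing notes. Cells with at least 500 genes and under 10% mitochondrial UMIs were kept. No doublet caller was run; instead, cells with 2 or more UMIs of other cell types' markers, or the 5% deepest, were removed as alternatives. Counts were summed per library and gate and tested with edgeR 4.0.16 (R 4.3.3; quasi-likelihood test, TMM, filterByExpr, Benjamini-Hochberg over all genes tested, threshold 0.05); an SE is the log2 fold over the square root of F. DESeq2 1.42.0 was an alternative, and the fits were tested on simulated data. Shares and splits used cells thinned to 2000 UMIs, leaving out shallower cells; gates were drawn again on thinned counts for shares and thinned sums, and before thinning for splits; binomial intervals are exact (95%) and, like the limit of 3 UMIs for a count of 0, cover counting error only. Named genes were the receptor genes, called members of fixed lists and, in each split, up to 10 per direction with the largest fold, the same sign in 5 of 5 libraries and a mean of at least 20 CPM, without antigen receptor segments, ribosomal, mitochondrial, sex-linked or unnamed genes. The members and lists were chosen with earlier results of these data known. Gates without cells of other gates, a Foxp3 gate at 2 UMIs or more, the Ncr1 gate in libraries with at least 20 such cells, and shares in gates drawn before thinning were alternatives chosen after seeing the data. The minimum of 20 cells per sum applied to genotype comparisons and splits, not to gates against the reference.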

Additional observations from a re-analysis of the deposited data

How the results depend on the processing

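In the knockout comparisons DESeq2 called 51 genes in the Foxp3 gate, 58 in the conventional CD4 gate, 40 in the Il23r gate, 3 in the Cd8 gate and 29 for the difference between gates; without a filter on low counts the numbers were 452, 191, 444, 120 and 297. Thinning to 2000 UMIs gave 2 in the Foxp3 and 0 in the Il23r gate. Removing cells with markers of other types gave 0 in the Il23r gate, 1 in the Cd8 gate and 2 for the difference between gates, and a Foxp3 gate at 2 UMIs or more gave 13 for that difference. Leaving out 1 library gave 0 to 33 calls in the Foxp3 gate (33 without control replicate 2), 0 to 13 in the Il23r gate, 0 to 77 in the Cd8 gate and 2 to 39 for the difference, each highest without control replicate 2.

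Against reference cells, fits without a library term called 917 genes in the Foxp3 gate, 425 in the Il23r gate, 153 in the Cd8 gate and 413 in the Ncr1 gate; thinned counts gave 1323, 606, 193 and 432. The Ncr1 gate had 451 after removal of cells with markers of other types, and the Il23r gate 740 (without knockout replicate 1) to 1177 on leaving out 1 library. The Klrg1 split had 576 without a filter and 20 to 408 on leaving out 1 library (20 without control replicate 1, 408 without knockout replicate 2). The Klrd1 split had 416 without cells of other gates, 348 from thinned counts and 463 to 724 on leaving out 1 library. The causes were not tested.

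Of single genes, Fcer1g in the Il23r gate changed sign with thinned counts (-0.11, adjusted p = 0.897, edgeR), and so did Eomes in the Klrd1 split without cells of other gates (-0.74, adjusted p = 0.454); the causes were not tested. Of 55 receptor-by-comparison folds not given above, 0 were called, 27 changed sign and 6 were called in at least 1 alternative.

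Replicate numbers did not pair the libraries: correlations of same-numbered deviations were -0.11 to 0.17, and libraries did not always correlate best with their own number. With the replicate block, 0 genes were called in the Foxp3 gate, 1 in the conventional CD4 gate, 1 in the Il23r gate and 0 in the Cd8 gate, and Klrg1 stood at -0.60 in the Foxp3 and 1.37 in the conventional CD4 gate. Between genotypes, thinning in the Cd8 gate and any test in the Ncr1 gate were not run, for fewer than 20 cells in a sum. The Klrg1 split at 1000 UMIs was not run for the same reason. Depth limits Klra6 and Klrb1b most: several sums held 0 UMIs of them.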

Other observations

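Cells outside the 5 gates, which had neither Foxp3, Cd4, Il23r, Ncr1 nor both Cd8 genes, held more of several receptor transcripts in control replicate 1 than in the other libraries. Klrk1 stood there at 112 CPM in control replicate 1, 25.3 in control replicate 2 and 91.8, 27.1 and 17.6 in the knockouts. Klrd1 was at 84.9, 16.5, 28.9, 25.9 and 10.7 CPM in the same order, Klrc1 at 44.6, 9.91, 13.6, 13.4 and 6.75, and Klre1 at 30.0, 6.06, 9.39, 4.35 and 2.61. Klra6 was at 8.98 CPM in control replicate 1, and 44.4% of that library's Klra6 UMIs came from these cells. They numbered 1134 in control replicate 1 and 2545 in control replicate 2, with median depths of 4070.5 and 2269 UMIs. These levels were in no comparison.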
